A study of Mus musculus with 6 samples.

Results

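The retinoblastoma and E2F family was examined as 10 genes, Rb1, Rbl1, Rbl2, E2f1, E2f2, E2f3, E2f4, E2f5, E2f7 and E2f8, of 21887 protein-coding genes. A peak was taken if its summit lay in the RefSeq span of a gene or within 20 kb of either end. This gave 77 of 98072 peaks in cells lacking Lap2alpha (KO) and 88 of 106132 peaks in wildtype (WT) cells. Open chromatin had been mapped by ATAC-seq, in which the transposase Tn5 cuts accessible DNA, in cultured mouse dermal fibroblasts, which make the collagen matrix of skin. The KO group had 3 libraries of genotype Lap2alpha KO and the WT group had 3 libraries of genotype WT, grown in the same serum-supplemented medium. Each genotype had 1 deposited peak list over its libraries, so there was no replicate spread, nothing was tested, and the sequencing depth was unknown. The labels state no age, sex, further allele or clonal origin.

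The pocket proteins pRb, p107 and p130, encoded by Rb1, Rbl1 and Rbl2, bind E2F transcription factors and hold back genes needed for DNA replication. Cyclin-dependent kinases phosphorylate pocket proteins and free the E2Fs when a cell enters the cycle. Lap2alpha, a nucleoplasmic splice form encoded by Tmpo, binds A-type lamins and pRb, and has been linked to cell cycle exit through this pathway. E2F1, E2F2 and E2F3 are mostly activators, E2F4 and E2F5 act mostly as repressors together with p107 and p130, and E2F7 and E2F8 repress without binding a pocket protein.

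Several of these genes are themselves E2F targets, so the promoter sequences under the peaks are shown first. The RefSeq promoter table of GRCm38.p6 held 9 windows for 7 of the 10 genes, each from 250 bases before to 50 bases after a start. These 5 windows are printed because each held an E2F word, or within 50 bases of the start a CHR element, the TTTGAA sequence bound by the DREAM and MuvB complexes, and lay wholly inside a peak of both lists. Capitals mark the E2F word (TTTCCCGC, TTTCGCGC, TTTGCCGC or TTTGGCGC) and the CHR element, on either strand, so that a word on the opposite strand reads as its reverse complement. Both strands were searched, and among the words found in the 9 windows only 2 GC boxes of E2f7 overlapped, by 1 base.
Rbl1, chr2:157204485-157204784, minus strand: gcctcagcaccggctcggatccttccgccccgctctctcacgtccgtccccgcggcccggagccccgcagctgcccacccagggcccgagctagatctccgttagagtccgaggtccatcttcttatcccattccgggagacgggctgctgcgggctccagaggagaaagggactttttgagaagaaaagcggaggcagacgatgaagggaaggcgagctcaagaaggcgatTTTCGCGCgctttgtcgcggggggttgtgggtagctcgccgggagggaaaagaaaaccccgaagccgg
E2f2, chr4:136172024-136172323, plus strand: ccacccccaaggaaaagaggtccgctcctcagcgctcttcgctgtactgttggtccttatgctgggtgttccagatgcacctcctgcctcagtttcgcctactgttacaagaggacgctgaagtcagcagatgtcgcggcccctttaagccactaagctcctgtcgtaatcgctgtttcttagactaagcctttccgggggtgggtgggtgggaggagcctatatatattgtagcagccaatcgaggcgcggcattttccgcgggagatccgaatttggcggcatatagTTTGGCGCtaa
E2f3, chr13:29986014-29986313, minus strand: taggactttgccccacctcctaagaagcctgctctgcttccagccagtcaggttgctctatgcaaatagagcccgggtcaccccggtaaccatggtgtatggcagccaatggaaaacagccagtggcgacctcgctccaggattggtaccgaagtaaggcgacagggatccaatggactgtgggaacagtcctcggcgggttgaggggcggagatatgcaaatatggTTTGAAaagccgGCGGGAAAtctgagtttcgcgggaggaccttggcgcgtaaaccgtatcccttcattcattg
E2f7, chr10:110745189-110745488, plus strand: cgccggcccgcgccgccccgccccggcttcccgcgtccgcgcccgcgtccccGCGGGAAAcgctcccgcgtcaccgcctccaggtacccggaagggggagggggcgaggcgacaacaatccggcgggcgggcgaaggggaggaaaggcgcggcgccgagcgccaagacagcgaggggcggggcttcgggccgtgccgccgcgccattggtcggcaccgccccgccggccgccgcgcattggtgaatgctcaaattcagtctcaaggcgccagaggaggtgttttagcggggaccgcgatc
E2f8, chr7:48881547-48881846, minus strand: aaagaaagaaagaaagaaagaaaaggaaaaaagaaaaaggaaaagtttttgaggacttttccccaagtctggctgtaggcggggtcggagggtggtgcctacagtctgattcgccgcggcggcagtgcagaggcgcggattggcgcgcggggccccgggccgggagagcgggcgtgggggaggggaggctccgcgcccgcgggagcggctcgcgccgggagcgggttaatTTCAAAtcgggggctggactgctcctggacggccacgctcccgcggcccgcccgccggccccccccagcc

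An E2F word was present in 4 of the 9 windows, against 2.26% of 32851 windows of the same length in the table. It began 18 bases before the start in Rbl1, 11 before it in E2f3, 198 before it in E2f7 and 39 after it in E2f2. A CHR element lay in 4 of the 9 windows, against 17.9% of all windows. In E2f3 it began 23 bases before the start, beside the E2F word, and in E2f8 it began 20 bases before the start. The window of Rbl2 held a CHR element farther out, 201 bases before the start, and the window of the second E2f2 start, which held no peak in either list, had one 31 bases before that start. The window of E2f1 held 5 GC boxes (GGGCGG) and no E2F word. That window, from 154569377 to 154569676, lay wholly inside the gene, whose outer end is at 154569892. The sequence at and beyond this outer end of E2f1 was not searched for any word. CCAAT boxes lay in 5 of the 9 windows and GC boxes in 8, against 37.4% and 35.7% of all windows. The median GC content of the 9 windows was 64.0%, against 52.7% for the table, and the median number of CpG pairs was 29 against 7. Every E2F word searched holds a CpG pair. The windows of the table were not matched to the 9 windows for GC or CpG content. These matches describe letters in a window and not bound sites.

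All 10 genes had a peak at an annotated start or gene end in the KO list and in the WT list. Over all protein-coding genes, 56.1% carried such a peak at a gene end in both lists, 1.31% in KO only and 2.47% in WT only. For the 7 genes with an annotated start, a start peak was found in both lists at each, where 55% of genes in the promoter table had one. Peaks at these starts were strong within their own list. Strength is given as a percentile of the deposited signal, an area that grows with peak length. The strongest start or gene-end peak of the 10 genes had a median percentile of 93.4 in KO and 95.0 in WT, against 89.8 and 91.3 over the 12270 genes with gene-end peaks in both lists. Since the lists differ in length, a difference between the 2 percentiles of a gene is not read as a change.

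Among the pocket protein genes, Rbl2 had the strongest start peak. Its peak ran from 91069516 to 91071235 on chromosome 8 in KO and from 91069503 to 91071357 in WT, at percentiles of 96.7 and 97.5. The summit lay 657 bp inside the gene from the start in KO and 660 bp in WT. The start peak of Rbl1, on chromosome 2, ran from 157203405 to 157205203 in KO and from 157203329 to 157205373 in WT, at percentiles of 92.6 and 94.9. Its summit lay 1 bp from the start in KO and 255 bp upstream in WT, a distance of 256 bp between the lists. At this gene the KO summit lay 15 bp from the centre of the E2F word printed in capitals, and the WT summit 241 bp from it. Rb1, on chromosome 14, had a weaker gene-end peak, from 73325618 to 73326866 in KO and from 73325659 to 73326642 in WT, at percentiles of 80.4 and 74.3.

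Among the activators, E2f1 carried one of the strongest peaks of either list. On chromosome 2, a KO peak of 4734 bp from 154568218 to 154572951 ranked 141 of 98072 by signal, and a WT peak of 3686 bp from 154568007 to 154571692 ranked 386 of 106132. The summit lay 51 bp beyond the outer end of the gene in KO and 216 bp beyond it in WT. The annotated start in the promoter table lies inside the gene, 517 bp from the KO summit. At the first start of E2f3, on chromosome 13, the percentile was 95.7 in KO and 98.0 in WT, and the summits were 1 bp apart. E2f2, on chromosome 4, had the weakest start peak of the 3 activators, at percentiles of 77.5 in KO and 88.0 in WT. Its summit fell on the same base in both lists, 136172219, which is 55 bp upstream of the start and 97 bp from the centre of the E2F word.

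E2f4 and E2f5, which were not in the promoter table, had their strong peak at the gene end of lower coordinate. On chromosome 8, E2f4 had a peak from 105297095 to 105298455 in KO and from 105297099 to 105299602 in WT, at percentiles of 86.2 and 94.7. On chromosome 3, E2f5 had a peak from 14578316 to 14580026 in KO and from 14578304 to 14580089 in WT, at percentiles of 96.6 and 98.3. The E2f5 summit fell on the same base, 14578618, in both lists. The atypical E2f7, on chromosome 10, stood at percentiles of 94.0 in KO and 95.2 in WT, with its summit 31 bp inside the gene in KO and 60 bp in WT. E2f8, on chromosome 7, stood at 92.7 in KO and 94.7 in WT, with the summit 475 bp inside the gene from its start in KO and 551 bp in WT.

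**Figure D1:**
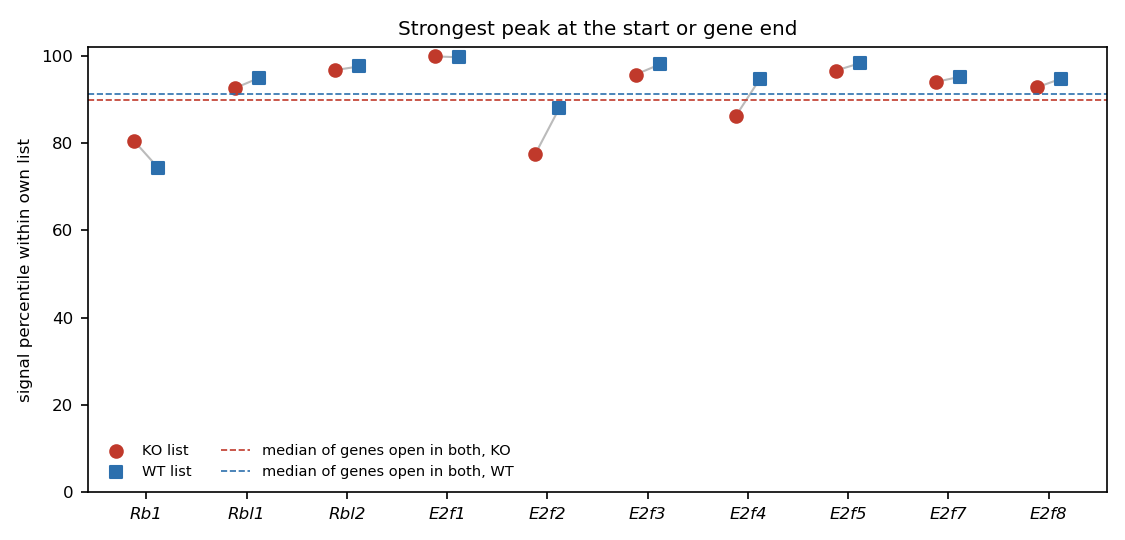
Signal percentile within its own list (vertical axis, 0 to 100) of the strongest peak at the start or gene end of each gene (horizontal axis), for KO (red circles) and WT (blue squares). Dashed lines mark the medians over genes with gene-end peaks in both lists, 89.8 in KO and 91.3 in WT. Values run from 77.5 to 99.9 in KO and from 74.3 to 99.6 in WT.

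The position of the opening was close to identical in the lists at most of these genes. Summits of the strongest start or gene-end peak lay within 50 bp of each other at 7 of the 10 genes. The exceptions were Rbl1 with 256 bp, E2f1 with 165 bp and E2f8 with 76 bp. Over all 57 peak pairs at the 10 genes that overlapped one to one, the median summit distance was 10 bp, and 75.4% lay within 50 bp. Over 75840 such pairs in the genome the median was 11 bp, and 79.6% lay within 50 bp.

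Peaks called in 1 list only were few and weak. In KO, 9 of 77 peaks (11.7%) had no WT peak overlapping by at least 1 bp, where 13.4% of all KO peaks had none. In WT, 21 of 88 peaks (23.9%) had no KO peak, where 20.4% of all WT peaks had none. Both shares were near the background. The KO-only peaks had percentiles of 0.861 to 34.6 with a median of 6.64, and the WT-only peaks had percentiles of 0.630 to 39.9 with a median of 14.1. Peaks found in both lists had medians of 58.1 in KO and 64.6 in WT. Genotype-only peaks were weak in the whole lists too, with medians of 16.5 in KO and 17.8 in WT. Shared peaks of the whole lists had medians of 55.9 and 59.3. In the upper 50% of the lists by signal, 0 of 41 KO peaks and 0 of 43 WT peaks at these genes lacked a partner, where 2.41% of KO and 3.49% of WT peaks in the upper 50% did. A peak missing from a list may lie just under its threshold, so KO-only and WT-only do not mean closed chromatin in the other genotype. Of these peaks, 3 of 9 in KO and 6 of 21 in WT had a peak of the other list within 1 kb, among them a WT-only peak of 123 bp in Rb1 that lay 42 bp from a KO peak.

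**Figure D2:**
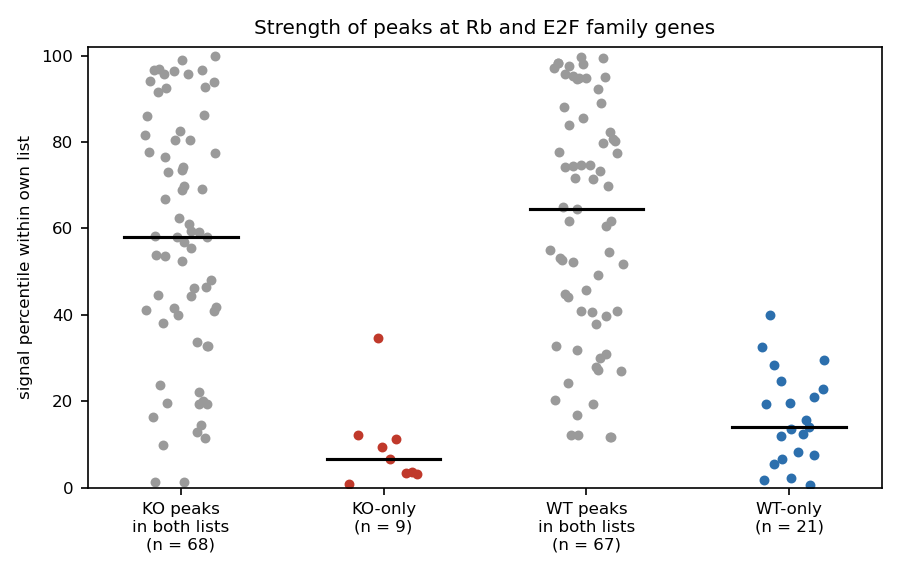
Signal percentile within its own list (vertical axis) of each peak at the 10 genes, as points, for KO peaks in both lists (n = 68), KO-only peaks (n = 9), WT peaks in both lists (n = 67) and WT-only peaks (n = 21). Bars are medians, at 58.1, 6.64, 64.6 and 14.1. Points are spread sideways only to separate them, and the highest genotype-only peaks lie at 34.6 in KO and 39.9 in WT.

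By gene, WT-only peaks were more numerous than KO-only peaks at 6 of 10 genes, where 44.4% of genes with gene-end peaks in both lists showed this. KO-only peaks were more numerous at 2 of 10, where 23.5% did. The KO-only peaks lay at Rb1, Rbl1, E2f1 and E2f7 with 2 each and at E2f8 with 1. The WT-only peaks lay at E2f2 and E2f4 with 4 each, at Rbl1 and Rbl2 with 3 each, at Rb1, E2f5 and E2f8 with 2 each and at E2f7 with 1. E2f3 had no genotype-only peak in either list.

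The counts by role are small and stand beside the shares of all peaks, 13.4% KO-only and 20.4% WT-only. From so few peaks no difference between roles is read. The repressor genes E2f4 and E2f5 together had 0 KO-only of 10 KO peaks and 6 WT-only of 14 WT peaks (42.9%). The 4 WT-only peaks at E2f4 were consecutive, between 105303440 and 105312240. The first pair lay inside E2f4, toward its end of higher coordinate. The third, at percentile 39.9, lay 360 bp beyond that end and inside Elmo3, a gene for an engulfment and cell motility protein. The last lay near an end of Lrrc29. No KO peak lay nearer than 3846 bp to any of them. The 3 activators together had 2 KO-only of 26 KO peaks (7.69%) and 4 WT-only of 27 WT peaks (14.8%). Both KO-only peaks at E2f1 lay far outside the gene, at 17574 and 15773 bp, the nearer one by an end of Necab3, and the 4 WT-only peaks were all at E2f2. One of these, from 136180046 to 136180266 at percentile 32.5, had its summit 590 bp upstream of the second annotated start of E2f2, whose 300 bp window held no peak in either list.

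The pocket protein genes had 4 KO-only of 23 KO peaks (17.4%) and 8 WT-only of 28 WT peaks (28.6%), where 13.4% and 20.4% of all peaks were. Inside Rb1, KO-only peaks ran from 73266294 to 73266464 and from 73293955 to 73294130, at percentiles of 3.36 and 3.21, with no WT peak nearer than 8129 bp. Inside Rbl2, WT-only peaks ran from 91079783 to 91079944 and from 91117681 to 91117847, at percentiles of 1.67 and 22.8, and the second also lay in the overlapping gene Aktip. The 2 KO-only peaks counted at Rbl1 lay outside it, one inside and one next to Samhd1, which encodes a dNTP hydrolase. WT-only peaks also lay outside the pocket protein genes, inside Rcbtb2 near Rb1, inside Samhd1 near Rbl1 and by an end of Aktip near Rbl2. The atypical E2f7 and E2f8 had 3 KO-only of 18 KO peaks (16.7%) and 3 WT-only of 19 WT peaks (15.8%), of which 1, a KO-only peak in E2f7, lay inside a member gene. The annotation used here holds no exons, so exon and intron were not told apart.

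**Figure D3:**
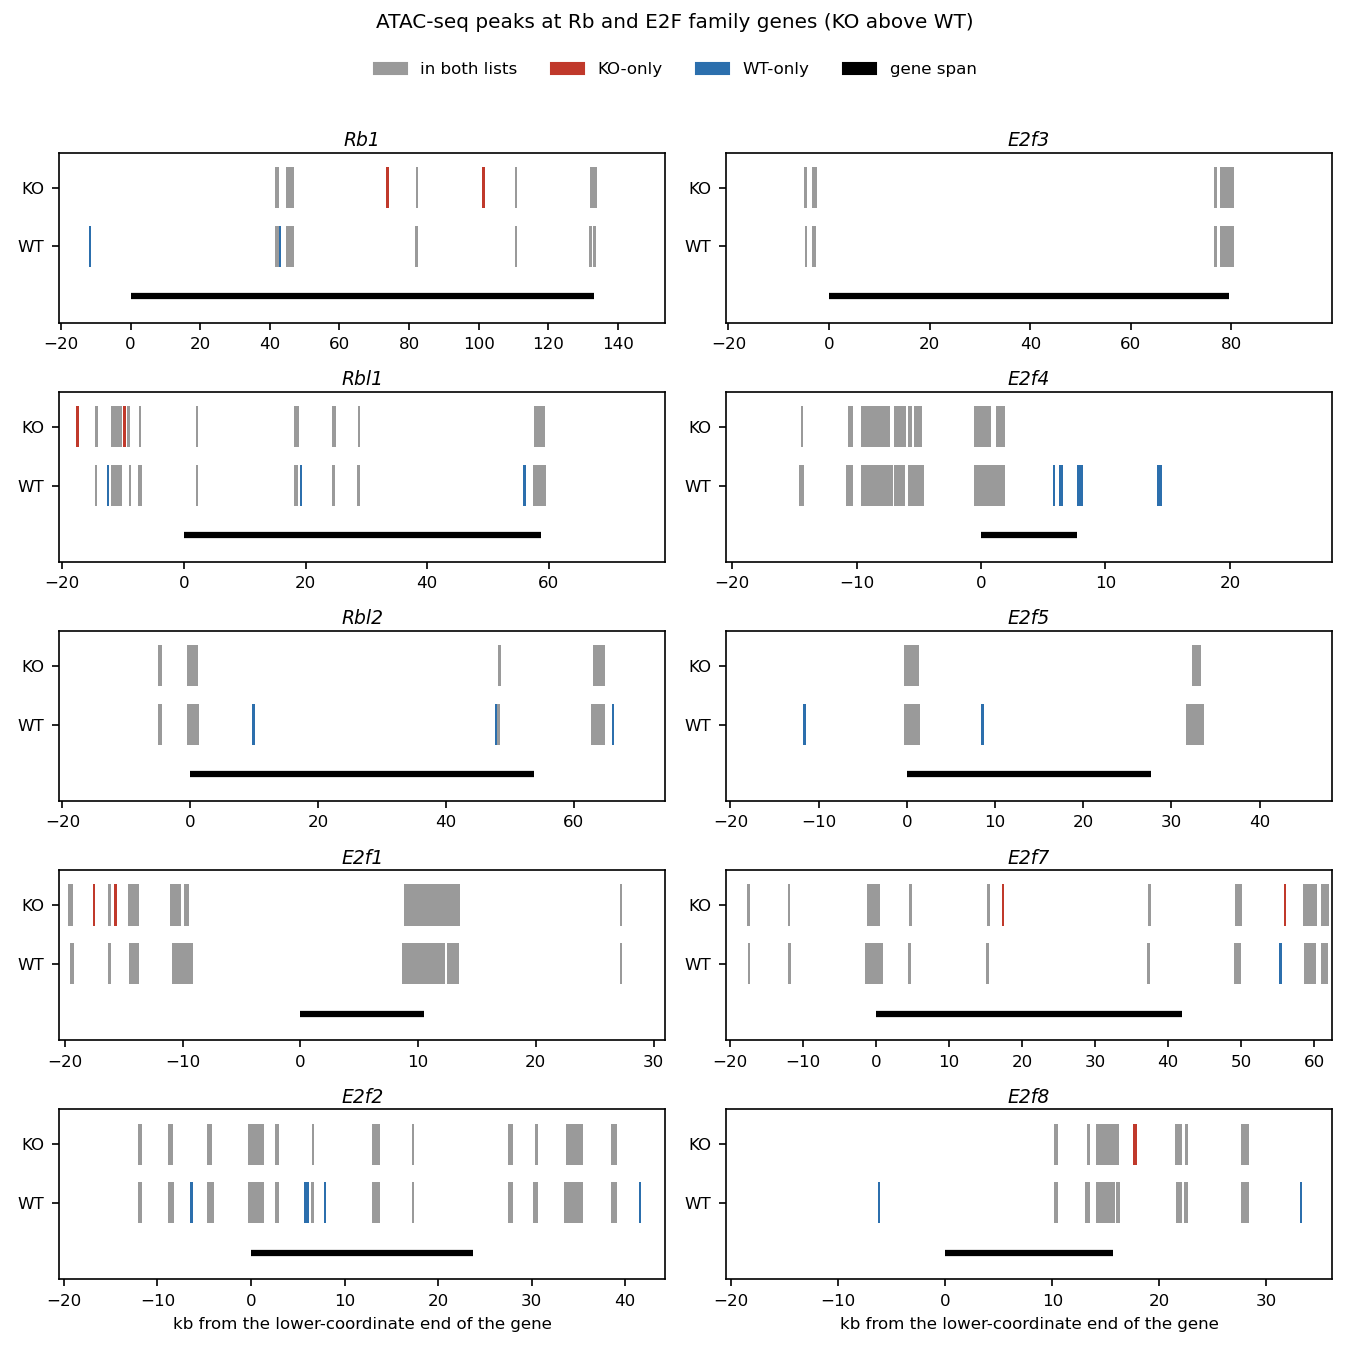
Peaks in the KO list (upper row of each panel) and the WT list (lower row) at the 10 genes, with distance in kb from the end of lower coordinate on the horizontal axis and the gene span as a black bar. Grey peaks overlap a peak of the other list, red peaks are KO-only (9) and blue peaks are WT-only (21). Narrow peaks are drawn at a minimum width, and neighbouring peaks may touch.

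Several of the strong regions were called as 1 peak in one list and as 2 in the other. This held for the strongest start or gene-end peak of 4 of the 10 genes, E2f1, E2f3, E2f4 and E2f8, where 16.7% of genes with gene-end peaks in both lists showed it. At E2f1 the KO peak of 4734 bp corresponded to 2 WT peaks with 123 bp between them, the second from 154571816 to 154572876 at percentile 80.7. At E2f8 the KO peak of 2218 bp corresponded to WT peaks of percentiles 94.7 and 32.8 with 151 bp between them. At E2f3 the order was the opposite. KO had a peak at each of the annotated starts, from 29984291 to 29985056 at percentile 58.0 and from 29985166 to 29987050 at percentile 95.7, with 109 bp between them. WT had 1 peak of 2782 bp, from 29984264 to 29987045, that covered both starts. At E2f4 the WT peak of 2504 bp corresponded to KO peaks of percentiles 86.2 and 46.2 with 433 bp between them. Such breaks change the area of a peak, and with it the percentile.

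The same was seen away from the starts. Inside Rb1, KO had 1 peak from 73237504 to 73239761 at percentile 93.8, the strongest KO peak at this gene, and WT had 2 peaks at percentiles of 82.4 and 80.2 with 106 bp between them. The KO summit lay inside and near an end of Lpar6, a lysophosphatidic acid receptor gene. In all, 3 of 77 KO peaks (3.90%) overlapped at least 2 WT peaks and 4 of 88 WT peaks (4.55%) overlapped at least 2 KO peaks, against 2.87% and 3.02% in the whole lists.

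**Figure D4:**
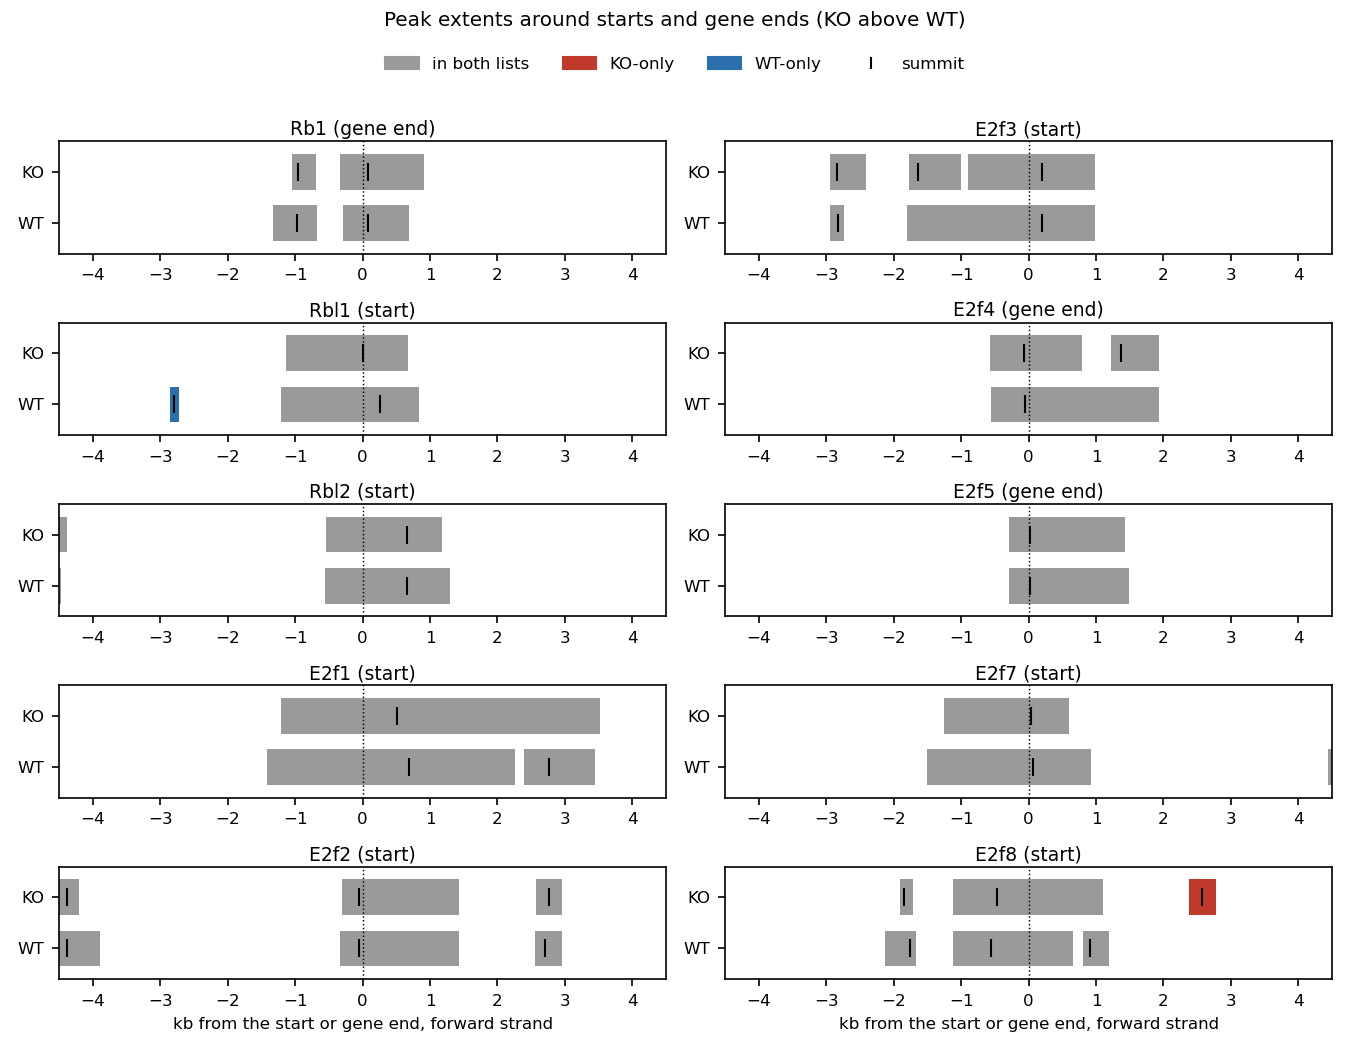
Extent of peaks within 4.5 kb of the start or gene end (dotted line) that carries the strongest peak of each gene, KO above WT, with distance along the forward strand in kb on the horizontal axis. Ticks are summits, grey peaks overlap a peak of the other list, the red peak at E2f8 is KO-only and the blue peak at Rbl1 is WT-only. One peak in KO stands against 2 in WT at E2f1 and E2f8, and 2 in KO against 1 in WT at E2f3 and E2f4.

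Peaks away from the starts included strong regions that lay inside or at ends of neighbouring genes. The strongest lay 8415 bp from E2f4 by its KO summit, at ends of Exoc3l and 4931428F04Rik, at percentiles of 99.0 in KO and 99.4 in WT. The next lay 10477 bp beyond Rbl2 and inside Aktip, at 97.0 in KO and 98.4 in WT. Rbl1 had peaks of intermediate strength inside the gene, among them one from 157170191 to 157170981 in KO and from 157170203 to 157170684 in WT, at percentiles of 73.0 and 73.3. E2f2 had the most peaks of the 10 genes, 12 in KO and 16 in WT, and all 12 KO peaks were in both lists. It lies on chromosome 4, which had 85.5% as many KO as WT peaks. Inside E2f2 a peak ran from 136185194 to 136186033 in KO and from 136185181 to 136186068 in WT, at percentiles of 80.4 and 83.9.

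E2f5 stood in a region with few KO peaks. Within 1 Mb of the gene there were 18 KO and 64 WT peaks, so that KO had 28.1% of the WT number. Of 12223 genes with gene-end peaks in both lists and at least 20 WT peaks within 1 Mb, 8 had a share this low or lower, E2f5 included, and the median was 94.3%. Genes close together share much of such a window, so these 8 genes need not be separate regions. All 18 KO peaks overlapped a WT peak, whereas 46 of 64 WT peaks (71.9%) were WT-only, against 20.4% of all WT peaks. Of 6 WT peaks at protein-coding gene ends 5 were shared, and of 58 WT peaks away from gene ends 13 were shared. The shared gene-end peaks were those of E2f5, Car13, Lrrcc1, Rbis and Slc7a12, and the WT-only one lay at Car3, a carbonic anhydrase gene. The WT-only peaks here were not all weak, as 13 of the 30 WT peaks in the upper 50% by signal were among them. Over the whole WT list, 3.49% of peaks in the upper 50% were WT-only. The first 500 kb above the lower-coordinate end of E2f5 held 10 KO and 37 WT peaks. Within 20 kb of E2f5 there were 2 KO and 4 WT peaks, and the WT-only ones lay inside E2f5 (14587055 to 14587338, percentile 29.4) and inside Lrrcc1 (percentile 12.1).

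**Figure D5:**
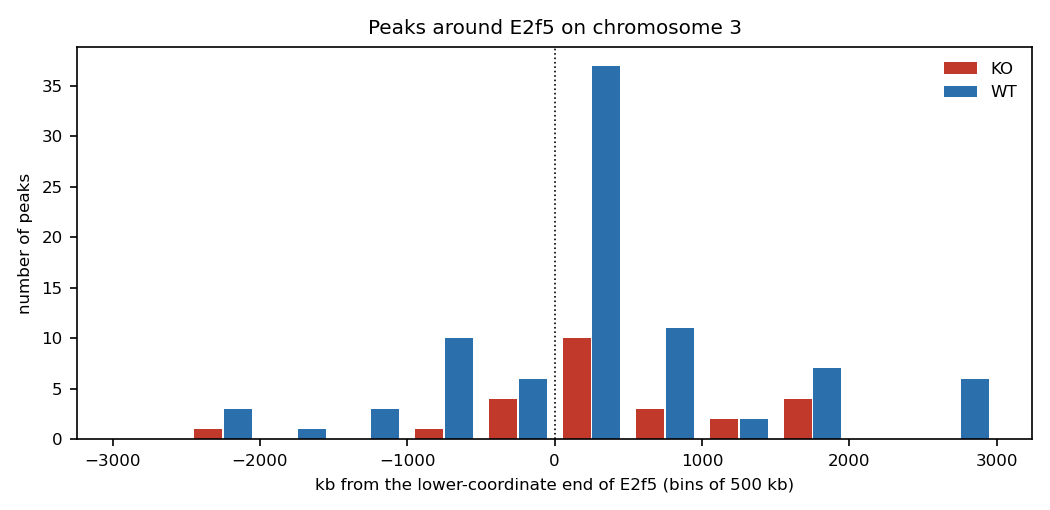
Number of peaks (vertical axis) in bins of 500 kb around E2f5 on chromosome 3, as distance in kb from the gene end of lower coordinate (dotted line), for KO (red, left) and WT (blue, right). The bin that begins at E2f5 holds 10 KO and 37 WT peaks.

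The other members lay in neighbourhoods of more even peak number. Within 1 Mb, KO had between 85.4% of the WT peak number at E2f2 and 99.0% at E2f7, apart from Rb1. Around Rb1, KO had 114 and WT 95 peaks, or 120.0%. Of these, 29 KO peaks (25.4%) were KO-only and 7 WT peaks (7.37%) were WT-only, against 13.4% and 20.4% of the whole lists. Whether these neighbourhoods have a part in the peaks counted at the genes was not tested.

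Other genes of the pathway were open at their ends in both lists in nearly every case. Of 36 listed genes, 35 carried a peak at an end of the gene in KO and in WT, against 56.1% of all protein-coding genes. All 9 E2F partners and MuvB components, among them the dimerisation partners Tfdp1 and Tfdp2, and all 18 E2F targets, among them the replication genes Mcm2 and Pcna, were open in both. Of 9 cyclin and kinase genes, 8 were. Ccnd3, a D-type cyclin gene, was open at an end in the KO list alone, from 47504985 to 47505294 on chromosome 17 at percentile 24.9. Within 20 kb of Ccnd3, its span included, there were 12 KO peaks, 1 of them KO-only, and 11 WT peaks, 1 of them WT-only. Starts inside its span were not examined. The median percentile of the strongest gene-end peak was 91.8 in KO and 93.7 in WT over the list. It was 89.8 and 91.3 over all genes with gene-end peaks in both lists. E2f6, a repressor that acts without pocket proteins, had weak gene-end peaks, at percentiles of 38.2 in KO and 43.6 in WT. Within 20 kb of the 36 genes, 29 of 250 KO peaks (11.6%) were KO-only and 51 of 265 WT peaks (19.2%) were WT-only, close to the shares of the whole lists.

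The labelled cell type was checked against marker genes. Of 12 dermal fibroblast genes, 10 were open at an end in KO and in WT, against 56.1% of all protein-coding genes. These included Col1a1, Col1a2, Pdgfra, Vim and Twist2, and Lum and Fap were open in neither. Their strongest gene-end peaks had percentiles of 1.38 to 99.9 in KO and 71.1 to 99.4 in WT. The lowest in KO was that of Prrx1, a mesenchymal homeobox gene, whose WT peak stood at 84.3. The Prrx1 peak ran from 163313986 to 163314152 in KO, within the WT peak from 163312985 to 163314325. Only the upper edge of this KO peak came within 1 kb of the gene end at 163315145. Any KO peak that ended farther inside Prrx1 would not have been counted. The difference in percentile at Prrx1 is therefore not read as a change. Of 6 keratinocyte genes, Krt14 and Krt10 were open in both lists, Ivl in WT only, and Krt5, Cdh1 and Epcam in neither. Of 5 endothelial genes, Cdh5 and Tek were open in both and Pecam1, Kdr and Vwf in neither. Among leukocyte genes, Cd68 counted as open in both only through the 1 kb allowance, and Ptprc, Itgam, Cd3e and Lyz2 were open in neither. The Cd68 peaks ended at 69663380 in KO and 69663373 in WT, outside the gene, whose lower-coordinate end is 69664213. The Pdgfra peaks likewise ended before the lower-coordinate end of that gene, at 75151055 in KO and 75151081 in WT against 75151322. Among glial and pigment cell genes, Pmel was open in both and Sox10, Dct and Tyr in neither.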

How the data were processed

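The submitters' processing notes name GRCm38 as the build and list deepTools 3.5.1, Genrich and Bowtie2 2.5.1 as tools. Their settings, any Tn5 shift and the merging of 3 libraries into 1 list are not stated. The authors deposited for each peak a score held at 1000, a signal, the −log10 p and −log10 q of the summit and the summit position. The deposited score was 1000 times signal over length, at its ceiling for 95.0% of KO and 94.8% of WT peaks, and was not used, nor was the −log10 q. The deposited signal, never below 200 and unscaled between lists, served as a percentile of its own list, and the deposited −log10 p for a stricter threshold.

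Overlaps were computed with Python 3.11.15, numpy 2.4.6 and pandas 2.3.3, and checked on a simulated list of 106132 peaks made from the WT list, where bedtools 2.31.1 gave the same number. Genes came from RefSeq GRCm38.p6. Starts came from its promoter table (7 of 10 genes), otherwise either gene end was used, within 1 kb. All members were named, with their genotype-only peaks described or counted, the 2 strongest peaks away from starts, and listed pathway genes not open in both lists. The members and lists were chosen with earlier results of these data known. No library could be left out. The replicates' origin is not given, and no p-value was computed. Results for some marker genes are not reported here.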

Additional observations from a re-analysis of the deposited data

How the results depend on the processing

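All 10 genes kept a start or gene-end peak in both lists within 250 bp or 5 kb, under a stricter summit threshold (−log10 p of at least 10.1) and in the upper 50% by signal. The counts of genotype-only peaks, 9 KO-only and 21 WT-only, moved more. They were 21 and 32 with a reciprocal overlap of 50%, 6 and 15 when a peak within 1 kb counted as shared, 4 and 3 under the stricter threshold, 5 and 7 with both lists held to their 73554 strongest peaks, and 0 and 0 in the upper 50% by signal. With 5 kb around the genes they were 4 and 11, and with 50 kb 10 and 30. Counting only peaks inside a member or nearest to its end, an alternative chosen after seeing the data, gave 5 and 14. With 5 kb, 50 kb and nearest peaks the KO-only shares were 9.52%, 8.13% and 9.62%, against 13.4% of the whole list. The WT-only shares were 22.0%, 21.3% and 22.6%, against 20.4%. Reciprocal overlap gave 27.3% in KO and 36.4% in WT, against 28.1% and 33.6% of the whole lists. The 1 kb rule gave 7.79% and 17.0%, against 10.7% and 15.6%. Under the stricter threshold the members had 4 of 40 KO peaks (10.0%) and 3 of 40 WT peaks (7.5%) in 1 list only, against 14.3% and 17.5% of the whole lists. With lists of equal length the shares were 8.93% in KO and 12.3% in WT, against 15.3% and 15.8%. Of the 36 pathway genes, 35 were open in both lists within 250 bp, and 34 in the upper 50% and under the stricter threshold, where E2f6 joined Ccnd3. No paired analysis was possible because each genotype has 1 combined list and no result comes from a test. The lists carry no read depth, and a list from more reads would hold more weak peaks, so a genotype-only peak of low percentile is the least reliable value here.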

Other observations

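Among the listed pathway genes, some chosen after their values were seen had unequal numbers of genotype-only peaks within 20 kb. Over the whole list of 36 genes, 8 had more KO-only peaks, 18 more WT-only peaks and 10 equal numbers, and over all genes with gene-end peaks in both lists an excess of KO-only peaks was found at 23.5% and an excess of WT-only peaks at 44.4%. Ezh2, a histone methyltransferase gene and E2F target on chromosome 6, had 6 KO peaks, 5 of them KO-only, and 1 WT peak. Lin54, a DNA-binding MuvB subunit gene that recognises the CHR element, had 0 KO-only of 10 KO peaks and 6 WT-only of 17 WT peaks. Rbbp4, a histone-binding MuvB subunit gene, had 0 KO-only of 7 KO peaks and 5 WT-only of 11 WT peaks. Tk1, the thymidine kinase gene, had 0 KO-only of 9 KO peaks and 4 WT-only of 12 WT peaks. The gene-end peaks of these genes were in both lists, at percentiles of 72.6 to 99.8 in KO and 75.8 to 99.9 in WT.

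Across the promoter table, 744 of 32851 windows held an E2F word. A peak of both lists overlapped 73.8% of them, against 39.0% of all windows. The windows were not matched for GC or CpG content, and whether the E2F word has a part in this was not tested. A peak of the KO list alone overlapped 4 of the 744 windows (0.538%), against 0.813% of all windows. A peak of the WT list alone overlapped 8 of them (1.08%), against 1.88% of all windows.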
